A study of Rattus norvegicus with 10 samples.

Results

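Numbl, its relative Numb and 8 genes of the Notch pathway were followed through hippocampal RNA sequencing of rats fed the histone deacetylase inhibitor RG2833. The 10 genes were Numbl and Numb, the receptors Notch1, Notch2 and Notch3, the target genes Hes1, Hes5 and Hey1, and the ligands Dll1 and Jag1. They were chosen by name among the 17168 gene symbols of the count table, and Numbl was chosen because it had risen in these same animals. Its change is therefore described and not tested. All 10 members passed the filter on low counts, as did 11791 symbols in all.

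The tissue was the left hippocampus, taken at the age of 11 months from 10 female rats of the line TgF344-AD, 5 untreated and 5 fed RG2833. TgF344-AD rats carry mutant human transgenes, among them one for amyloid precursor protein, driven by the mouse prion promoter. Both groups carry them (the genotype is labelled Tg-AD), so every comparison is drug against no drug within transgenic rats. The RG2833 animals ate chow with 750 mg of RG2833, an inhibitor of HDAC1 and HDAC3, per kg of chow for 6 months from the age of 5 months, while the untreated animals ate rodent chow. A blue food dye was used to tell the chows apart.

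Notch receptors are cut in the membrane by gamma-secretase after a Delta or Jagged ligand on a neighbouring cell binds them, and the released intracellular part joins the DNA-binding protein Rbpj to switch on Hes and Hey genes. Without that signal Rbpj recruits corepressors that work with histone deacetylases. Numb and Numbl are endocytic adaptor proteins that hold back Notch signalling, and in the adult hippocampus the pathway is known for keeping neural stem cells and astrocytes in their state and for its role in vessel walls.

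Hes genes are the usual read-out of the pathway, so short stretches before the start sites of Hes1, Hes5 and, from the ligands, Dll1 are given with the Rbpj core motif TGGGAA in capitals. A match describes the letters and is not a measured binding site. Sequences are 5′ to 3′ from RefSeq on the build GRCr8, which is not the build of the counts. The Hes1 stretch is chr11:84213131-84213180 (minus strand), the Hes5 stretch chr5:170804457-170804506 (plus strand) and the Dll1 stretch chr1:64993330-64993379 (minus strand).
Hes1: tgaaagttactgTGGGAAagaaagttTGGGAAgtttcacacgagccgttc
Hes5: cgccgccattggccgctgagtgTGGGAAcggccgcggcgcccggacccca
Dll1: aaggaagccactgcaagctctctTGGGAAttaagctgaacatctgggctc
The paired Hes1 copies begin 123 and 109 bases before the start site, and the copies shown for Hes5 and Dll1 begin 98 and 82 bases before it. Hes5 and Dll1 each held 1 further copy on the opposite strand, 242 and 185 bases before the start. Searched on both strands of the 250 bases before each start, 21.6% of 27457 promoters held TGGGAA at least once and 2.61% held it 2 or more times. The promoters of Numbl, Numb, the 3 Notch receptors and Jag1 held no copy in this window. Promoters of 9 of the 10 members were matched.

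The corresponding stretches of Numbl and Numb, the adaptor pair the results turn on, are shown with the GC box GGGCGG, or its reverse complement, in capitals. They are chr1:91677464-91677643 (plus strand) for Numbl and chr6:109284474-109284623 (minus strand) for Numb, again on GRCr8.
Numbl: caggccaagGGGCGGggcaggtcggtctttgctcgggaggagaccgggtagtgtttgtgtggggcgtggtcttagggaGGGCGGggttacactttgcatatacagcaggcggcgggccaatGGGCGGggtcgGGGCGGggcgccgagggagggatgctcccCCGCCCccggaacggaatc
Numb: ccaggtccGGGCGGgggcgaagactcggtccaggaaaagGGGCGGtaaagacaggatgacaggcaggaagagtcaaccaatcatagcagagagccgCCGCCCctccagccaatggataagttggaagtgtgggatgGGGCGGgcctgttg
Numbl held 5 copies and Numb 4, whereas 3.99% of all promoters held 4 or more and 1.84% held 5 or more. None of these copies overlapped another motif searched. The shares over all promoters include genes not tested here. At least 1 GC box was held by 32.4% of all promoters, but by 5207 tested genes against 3619 tested genes without it. The GC content of the 250 bases was 66.4% for Numbl and 54.4% for Numb, against a median of 52.0% over all promoters. The motif was not particular to this pair, as Notch1 and Notch3 held 4 copies each and Notch2 held 3. The other 7 matched members had GC contents from 61.6% to 73.2%. Hes1, Hes5, Dll1 and Jag1 held no GC box in the window.

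The libraries held between 8764266 and 11311673 estimated counts, and member counts ran from 62 to 1726 per library. Counts at ribosomal RNA loci made up 3.83 ± 1.29% of the untreated and 1.56 ± 0.368% of the RG2833 libraries (SD, n = 5 each) and did not overlap (p = 0.00794 by a two-sided exact permutation test, the lowest that 5 against 5 can give), so that share and the treatment cannot be told apart. On the first principal component, untreated animal 4 fell within the range of the treated animals. Untreated animal 1 carried Ttr, a choroid plexus gene, at 2381 CPM against at most 38.4 CPM elsewhere. Below, CPM are counts divided by TMM-corrected library sizes, and called means that the adjusted p was under 0.05 (edgeR's quasi-likelihood test with Benjamini-Hochberg adjustment over all 11791 tested genes). By that rule 5.08% of tested genes passed, 2.41% as higher and 2.67% as lower with RG2833. Groups did not overlap in 7.27% of tested genes, 3.8% with the treated animals higher and 3.47% with them lower.

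Numbl stood higher in RG2833 animals. The 5 untreated animals had 90.0, 81.8, 95.7, 116 and 93.5 CPM, and the 5 RG2833 animals had 165, 145, 147, 146 and 154 CPM. The groups did not overlap, and untreated animal 4 had the value closest to the treated range. Mean Numbl expression was 95.4 ± 12.5 CPM without and 151 ± 8.24 CPM with RG2833 (SD, n = 5 each), a fold of 1.59 and a log2 fold change of 0.66 (SE 0.09), with a 95% interval from 0.47 to 0.86. Because Numbl was picked for its rise, this interval describes spread and is no test of that rise. Leaving out each animal in turn gave log2 fold changes between 0.61 and 0.74, within the same animals used for that choice. Adding the ribosomal RNA share (log2) to the fit gave 0.51, and adding the level of Wfs1 gave 0.61. Numbl's estimated counts were not whole numbers in any of the 10 libraries (tolerance 0.005), whereas those of the other 9 members were whole in every library. Values that are not whole arise where the estimation divides reads between loci, and 14.0% of all genes had at least 1 such value. Which locus shared reads with Numbl was not tested.

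Numb, the close relative of Numbl, did not pass. It had 15.1, 17.4, 17.0, 18.6 and 18.3 CPM in the untreated animals and 18.7, 17.1, 20.4, 18.4 and 21.4 CPM with RG2833. The ranges overlapped. The log2 fold change was 0.15 (SE 0.09; edgeR adjusted p = 0.34), with a 95% interval from -0.05 to 0.36, and the value was 0.01 with the ribosomal RNA share in the fit. The ratio of Numbl to Numb CPM, not corrected for transcript length, was 5.53 ± 0.617 in untreated and 7.92 ± 0.736 in RG2833 animals (SD, n = 5 each). It lay between 4.71 and 6.21 in the first group and between 7.17 and 8.81 in the second, so the ranges did not overlap. This ratio carries the value that Numbl was picked for and has no test.

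**Figure D1:**
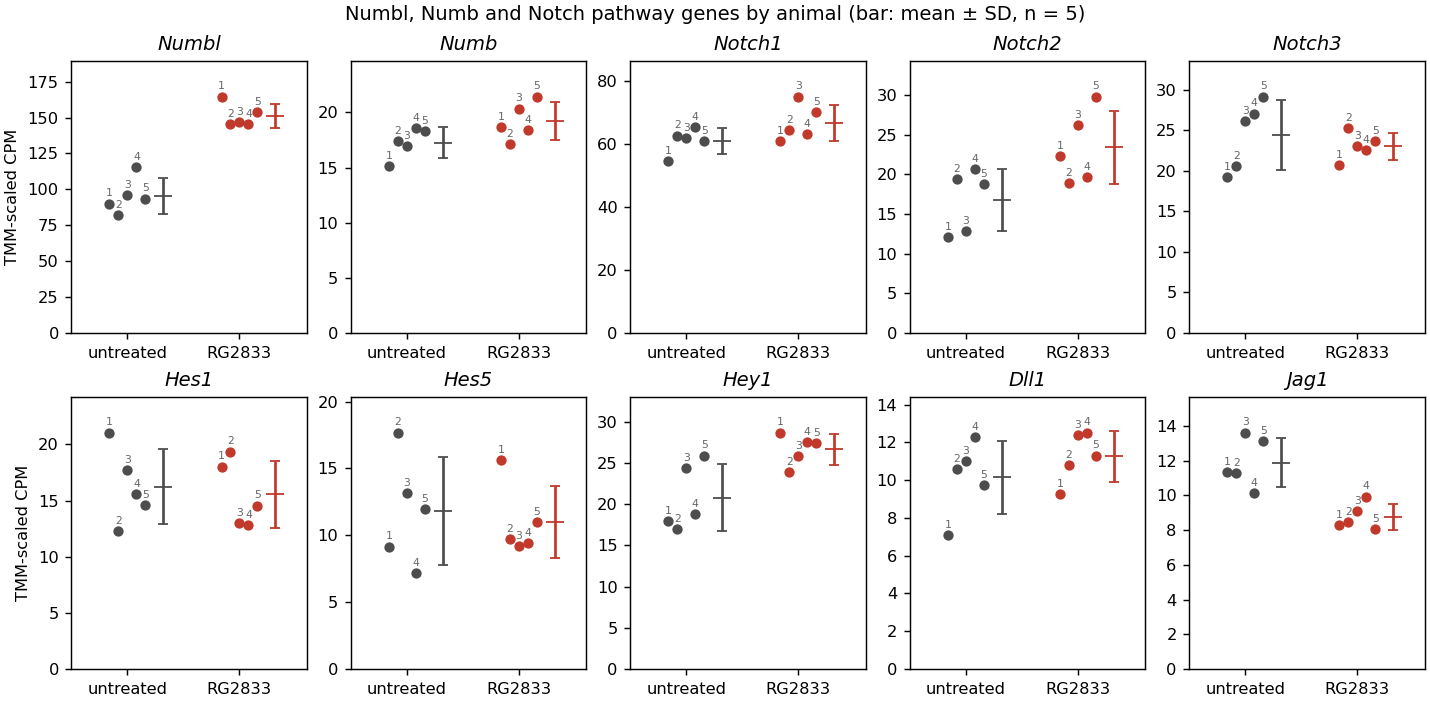
TMM-scaled CPM of the 10 members in each animal (points, numbered by replicate; untreated grey, RG2833 red), with the mean and SD of 5 animals beside them; each panel has its own axis from 0. Numbl sits between 81.8 and 116 CPM in untreated and between 145 and 165 CPM in RG2833 animals, Jag1 is lower without overlap, and the other 8 genes overlap between the groups.

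Markers of hippocampal neurons, most of them of excitatory cells, had higher sums in the same animals. The summed level of 10 hippocampal neuron markers ran from 7928 to 10942 CPM in untreated and from 11620 to 13148 CPM in RG2833 animals. Snap25, Nrgn and Slc17a7 weighed most in it, with untreated means of 3698, 2992 and 1626 CPM within a summed mean of 9902 CPM. Taken singly, 1 of the 10 markers was higher without overlap, as were 3.8% of all tested genes. The log2 fold changes of these markers were above 0 for 10 of 10, with a median of 0.43 against -0.0035 over all tested genes. Only Rbfox3, which encodes the neuronal nuclear protein NeuN, was called among them (log2 fold change 0.57, edgeR adjusted p = 0.040). In bulk tissue, more cells of a type and more RNA per cell cannot be told apart. RG2833 animal 1 had both the highest Numbl value and the highest marker sum, at 165 and 13148 CPM, whereas RG2833 animal 2 had the next highest sum, 12308 CPM, and the lowest treated Numbl value, 145 CPM. Of 6 inhibitory neuron markers none was called. Their log2 fold changes were below 0 in 5 (median -0.15) and 0.42 in Gad2, and their sums overlapped, at 411 to 766 CPM in untreated and 428 to 581 CPM in RG2833 animals. The part of these markers in the Numbl difference was not tested.

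A marker of 1 hippocampal field also varied between animals. Wfs1, a marker of pyramidal neurons of the CA1 field, was at 588 CPM in untreated animal 4 and between 63.9 and 88.0 CPM in the other untreated animals. In RG2833 animals it was at 108, 605, 542, 384 and 182 CPM. Among untreated animals the one with the highest Wfs1, animal 4, also had the highest Numbl, whereas among treated animals the one with the lowest Wfs1 had the highest Numbl. Across the 10 animals, with each gene's group mean taken off, the genes most like Numbl among 9208 genes of at least 3 mean log2 CPM were Cacng8, Ptk2b, Grin1, Wasf1 and Spata5. Their Pearson r with Numbl was 0.98, 0.96, 0.93, 0.92 and 0.92 (Spearman rho 0.95, 0.98, 0.93, 0.52 and 0.90). These are the top of a ranking over shared libraries and are given as a description. Cacng8 encodes an auxiliary subunit of AMPA receptors, Grin1 the shared subunit of NMDA receptors, Ptk2b a calcium-responsive tyrosine kinase and Wasf1 an actin regulator. By the same measure the other 9 members had r between -0.44 (Hes5) and 0.41 (Notch3).

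**Figure D2:**
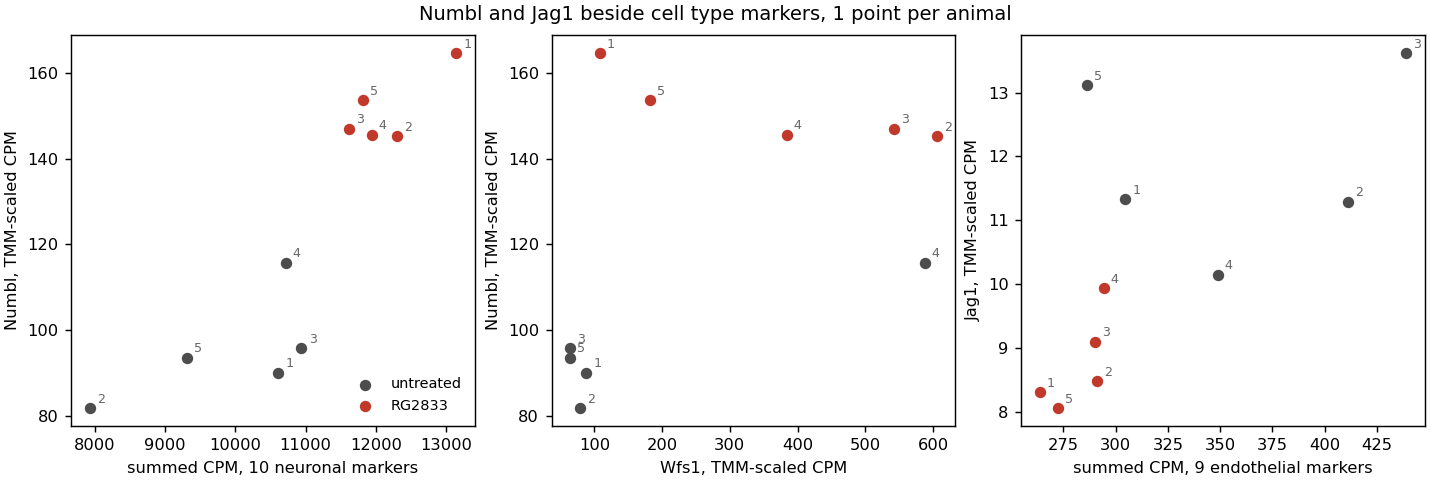
Numbl against the summed CPM of 10 neuronal markers (left) and against Wfs1 (middle), and Jag1 against the summed CPM of 9 endothelial markers (right), with 1 numbered point per animal (untreated grey, RG2833 red). Untreated animal 4 has a Wfs1 level of 588 CPM, within the treated range, with a Numbl level of 116 CPM, below every treated animal.

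None of the receptors was called. Notch2 had the largest difference among them, with 12.1, 19.4, 12.9, 20.7 and 18.7 CPM in the untreated animals and 22.3, 18.9, 26.3, 19.7 and 29.8 CPM with RG2833. The groups overlapped, and untreated animals 1 and 3 were the lowest. Mean Notch2 was 16.8 ± 3.95 and 23.4 ± 4.60 CPM (SD, n = 5 each), or 0.48 in log2 terms (SE 0.17; edgeR adjusted p = 0.116). Its 95% interval, from 0.10 to 0.86, leaves 0 outside before adjustment over genes. The value was 0.15 (SE 0.34) with the ribosomal RNA share in the fit.

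Notch1, the receptor best known from neural stem cells, was measured with more counts. It had 54.3, 62.5, 61.7, 65.3 and 60.7 CPM in the untreated animals and 60.9, 64.3, 74.9, 63.1 and 69.9 CPM with RG2833. The ranges overlapped, and RG2833 animal 3 was the highest. The log2 fold change was 0.13 (SE 0.08; edgeR adjusted p = 0.32), with a 95% interval from -0.04 to 0.29. It was 0.03 with the ribosomal RNA share in the fit and 0.07 with the Wfs1 level.

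Notch3, the receptor of pericytes and vascular smooth muscle, had 19.2, 20.6, 26.1, 27.1 and 29.2 CPM in the untreated animals and 20.7, 25.3, 23.0, 22.6 and 23.6 CPM with RG2833. All treated values lay inside the untreated range. The log2 fold change was -0.09 (SE 0.12; edgeR adjusted p = 0.698), with a 95% interval from -0.34 to 0.17. Summed mural cell markers overlapped as well, at 161 to 200.3 CPM in untreated animals and 146 to 178 CPM with RG2833. Of 9 tested mural markers none was called. Their log2 fold changes were below 0 in 7 and above 0 in 2, with a median of -0.17. At an unadjusted p under 0.05, 2 were lower and 0 higher, against 12.7% of all tested genes as lower.

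None of the member target genes was called. Hes1, a transcriptional repressor switched on by Notch, had 21.0, 12.3, 17.7, 15.5 and 14.6 CPM in the untreated animals and 18.0, 19.4, 13.0, 12.8 and 14.5 CPM with RG2833. The groups shared nearly the same range. The log2 fold change was -0.06 (SE 0.16; edgeR adjusted p = 0.858), with a 95% interval from -0.41 to 0.29.

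Hes5, a target and marker of Notch activity in stem cells and astrocytes, varied most between untreated animals among the members. It had 9.15, 17.7, 13.2, 7.17 and 11.95 CPM in the untreated animals and 15.6, 9.72, 9.20, 9.41 and 11.0 CPM with RG2833. Untreated animal 4, with high Wfs1, had the lowest value, and the 2 highest values fell in different groups. The coefficient of variation was 34.1% in untreated animals, and the log2 fold change was -0.10 (SE 0.23; edgeR adjusted p = 0.816; 95% interval from -0.60 to 0.39). With the Wfs1 level as a covariate the Hes5 value turned to 0.31 (edgeR adjusted p = 0.515), with the ribosomal RNA share to 0.94, and without untreated animal 2 to 0.09. Hes1 likewise turned to 0.05 without untreated animal 1 and to 0.00078 without RG2833 animal 3, so no direction can be given for either gene.

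Hey1, a repressor of the related Hey family that is prominent in vessels, had 18.0, 17.0, 24.4, 18.8 and 25.9 CPM in the untreated animals and 28.7, 23.9, 25.8, 27.5 and 27.4 CPM with RG2833. Untreated animals 3 and 5 reached into the treated range. Mean Hey1 was 20.8 ± 4.05 and 26.7 ± 1.86 CPM (SD, n = 5 each), a log2 fold change of 0.36 (SE 0.12) that did not pass (edgeR adjusted p = 0.101). Without untreated animal 5 the value was 0.45 and passed (edgeR adjusted p = 0.0392).

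Of the ligands, Jag1 fell and Dll1 did not pass. Jag1, which is made by endothelial and other cells and activates Notch on their neighbours, had 11.3, 11.3, 13.6, 10.1 and 13.1 CPM in the untreated animals and 8.30, 8.47, 9.10, 9.93 and 8.06 CPM with RG2833. Each treated animal lay below each untreated one, with untreated animal 4 and RG2833 animal 4 closest to each other. Mean Jag1 was 11.9 ± 1.43 and 8.77 ± 0.754 CPM (SD, n = 5 each), or -0.44 in log2 terms (SE 0.12; edgeR adjusted p = 0.0496; 95% interval from -0.69 to -0.19). Groups without overlap in this direction occurred in 3.47% of tested genes. The direction was the same in every alternative run, but the call sat at the threshold. Of the 10 fits that each left out 1 animal it passed only without untreated animal 4 (edgeR adjusted p = 0.0196; the others gave 0.0636 to 0.124), and with the Wfs1 level as a covariate the value was -0.37 (edgeR adjusted p = 0.29). With the ribosomal RNA share in the fit it was -0.36 (SE 0.24), which did not pass.

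Endothelial markers were lower beside Jag1. Their log2 fold changes were below 0 in 9 of 9 tested genes, with a median of -0.31, though none was called. An unadjusted p under 0.05 was reached by 6 of them, all lower, against 24.5% of all tested genes in either direction and 12.7% as lower. The summed level ran from 286 to 439 CPM in untreated and from 264 to 294 CPM in RG2833 animals, with overlap. Cldn5, a tight junction gene of brain endothelium, had a log2 fold change of -0.44 (edgeR adjusted p = 0.081) and Tek, an endothelial receptor kinase, one of -0.44 (edgeR adjusted p = 0.069). The part of these cells in the Jag1 difference was not tested.

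Dll1, the Delta ligand of neurons and progenitors, had 7.09, 10.6, 11.0, 12.3 and 9.73 CPM in the untreated animals and 9.25, 10.8, 12.4, 12.5 and 11.3 CPM with RG2833. The ranges overlapped, and untreated animal 1 was the lowest. The log2 fold change was 0.14 (SE 0.15; edgeR adjusted p = 0.581), with a 95% interval from -0.18 to 0.46. With the Wfs1 level as a covariate it was -0.0037.

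Among the 9 members other than Numbl, 1 was therefore called, against the 5.08% of all tested genes. Their median log2 fold change was 0.13.

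**Figure D3:**
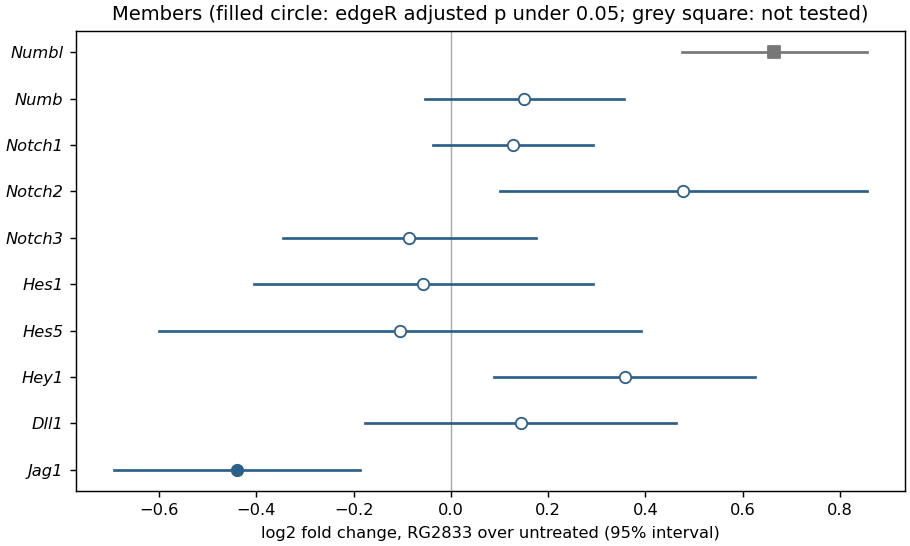
Log2 fold change of RG2833 over untreated animals (points) with 95% intervals (lines) for the 10 members; filled circles mark an edgeR adjusted p under 0.05, and the grey square marks Numbl, which has no test. Numbl, picked for its rise, is at 0.66, with an interval that is no test, and Jag1 is at -0.44. The intervals of Notch2 (0.10 to 0.86) and Hey1 (0.09 to 0.63) lie above 0 without passing after adjustment.

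A further 76 genes of the pathway were listed by role, of which 65 were matched in the table and 61 were tested. Of these 61, 1 was called higher and 1 lower, 3.28% against 5.08% of all tested genes. Log2 fold changes were above 0 in 33 and below 0 in 28, with a median of 0.02. At an unadjusted p under 0.05, 10 were higher and 5 lower, together a share near the 24.5% of all tested genes (11.8% higher and 12.7% lower).

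Among the corepressors recruited by Rbpj, Ncor1, a scaffold for histone deacetylase complexes, had a log2 fold change of 0.25 (edgeR adjusted p = 0.194). The Groucho-family corepressor Tle1 had one of 0.44 (edgeR adjusted p = 0.166), which passed without untreated animal 4 (0.60, edgeR adjusted p = 0.0273). The Tle1 value was 0.015 (SE 0.34) with the ribosomal RNA share in the fit and 0.32 with the Wfs1 level.

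The gene called lower was Hes6, a Hes family member that promotes neuronal differentiation and counteracts Hes1. It lay between 20.3 and 36.9 CPM in untreated and between 18.4 and 21.7 CPM in RG2833 animals. The overlap came from untreated animal 4, the lowest of its group, and RG2833 animal 2. Hes6 fell from 28.9 ± 5.99 to 19.3 ± 1.35 CPM (SD, n = 5 each; log2 fold change -0.58 ± 0.13, SE; edgeR adjusted p = 0.0341). It passed in 2 of the 10 fits without 1 animal (without untreated animals 4 or 5; edgeR adjusted p from 0.0022 to 0.0891 over the 10). The value was -0.09 (SE 0.22) with the ribosomal RNA share in the fit and -0.41 (edgeR adjusted p = 0.272) with the Wfs1 level, and neither passed.

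Heyl, the Hey family target that marks mural cells, lay close to the threshold in the direction opposite to Hey1. It had 31.0, 58.1, 46.6, 20.6 and 41.1 CPM in the untreated animals and 23.8, 22.7, 21.0, 25.1 and 19.7 CPM with RG2833. Untreated animal 4 fell inside the treated range, and the other 4 untreated animals lay above it. The log2 fold change was -0.81 (SE 0.22; edgeR adjusted p = 0.0506), and without untreated animal 4 it was -0.98 (edgeR adjusted p = 0.00277). With the Wfs1 level in the fit the value was -0.43 (edgeR adjusted p = 0.432), and with the ribosomal RNA share it turned to 0.17. Nrarp, a target that feeds back on Notch, had a value of -0.46 (edgeR adjusted p = 0.116). Further target genes were listed by name, and whether Notch drives each of them, Hes6 and Id1 among them, was not tested. Of the 6 tested, 4 had values below 0, with a median of -0.25. At an unadjusted p under 0.05, 3 of them (Hes6, Heyl and Nrarp) were lower and 0 higher. Of all tested genes, 12.7% reached that threshold as lower.

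**Figure D4:**
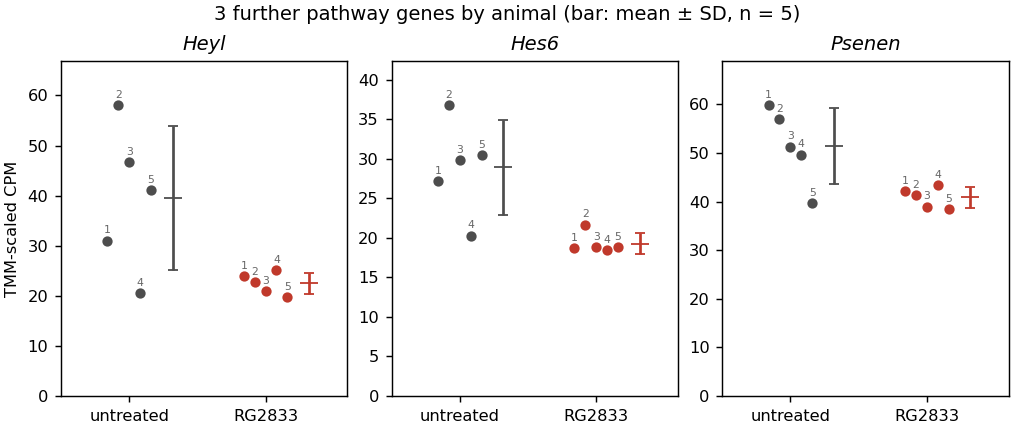
TMM-scaled CPM of Heyl, Hes6 and Psenen in each animal (points, numbered by replicate; untreated grey, RG2833 red), with the mean and SD of 5 animals; axes start at 0. In the panels of Heyl and Hes6, untreated animal 4 sits inside the treated range.

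The roles that follow held no called gene. Among receptor cleavage genes, which encode gamma-secretase and the ADAM proteases, Psenen, an activating subunit of gamma-secretase, had a log2 fold change of -0.33 (edgeR adjusted p = 0.0744). It passed without untreated animal 5 (-0.41, edgeR adjusted p = 0.0116) and was -0.18 (SE 0.20) with the ribosomal RNA share in the fit. A further 6 cleavage genes had log2 fold changes between -0.17 and 0.09.

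In the nuclear complex, Rbpj had a value of 0.11 (edgeR adjusted p = 0.479), the coactivator Maml3 one of 0.71 (edgeR adjusted p = 0.184) and the acetyltransferase Kat2a one of 0.15 (edgeR adjusted p = 0.217). Maml3 passed without untreated animal 4 (1.07, edgeR adjusted p = 0.0223), was 0.44 with the Wfs1 level in the fit and turned to -0.27 with the ribosomal RNA share. Of the ligand-like proteins, Dlk1 spanned 0.093 CPM (below the level of 3 counts) to 12.9 CPM in untreated and 0.357 to 2.90 CPM in treated animals, and 3 untreated animals lay above every treated one. Its log2 fold change of -2.32 (SE 0.78) had an edgeR adjusted p of 0.0941 and passed without untreated animal 4 (-2.65, edgeR adjusted p = 0.00892). It was -1.48 with limma-voom (adjusted p = 0.519), -1.35 and -1.54 with limma trend, and -0.75 with the Wfs1 level in the edgeR fit (adjusted p = 0.786). Cntn1, a neuronal adhesion protein, had a value of 0.13 (edgeR adjusted p = 0.528) and the endothelial ligand Dll4 one of -0.08 (edgeR adjusted p = 0.873), which turned to 0.22 without untreated animal 3.

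Among enzymes acting on ligands and receptors, the ubiquitin ligases Mib1 and Neurl1 had log2 fold changes of -0.14 and 0.21 (edgeR adjusted p = 0.346 and 0.33). The Fringe glycosyltransferase Rfng had one of 0.21 (edgeR adjusted p = 0.182) and the O-glucosyltransferase Poglut1 one of -0.17 (edgeR adjusted p = 0.21). Dtx2 and Dtx3, of the Deltex family of ubiquitin ligases, had values of 0.24 and 0.21 (edgeR adjusted p = 0.154 and 0.174). With the ribosomal RNA share in the fit Mib1 was -0.35, Neurl1 0.43, Rfng 0.45 and Dtx2 0.11, and none passed. Of 13 tested Numb partners and regulators, 1 was higher without overlap between groups, as were 3.8% of all tested genes. It was Ap2a1, a subunit of the clathrin adaptor that Numb binds. Its log2 fold change was 0.31 (SE 0.09, edgeR adjusted p = 0.0665), and it passed without untreated animal 4 (edgeR adjusted p = 0.0482). Ap2a2 and Ap2b1, of the same adaptor, had values of 0.015 and -0.053 (edgeR adjusted p = 0.96 and 0.77). Pard3, a polarity scaffold that binds Numb, had one of 0.31 (edgeR adjusted p = 0.0964) and passed without untreated animal 4 (0.37, edgeR adjusted p = 0.0398). With the ribosomal RNA share in the fit Ap2a1 was 0.07 (SE 0.17) and Pard3 0.05 (SE 0.19), and with the Wfs1 level Pard3 was 0.17 (edgeR adjusted p = 0.508). Msi1, an RNA-binding protein known to repress Numb translation, had one of -0.08 (edgeR adjusted p = 0.744).

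**Figure D5:**
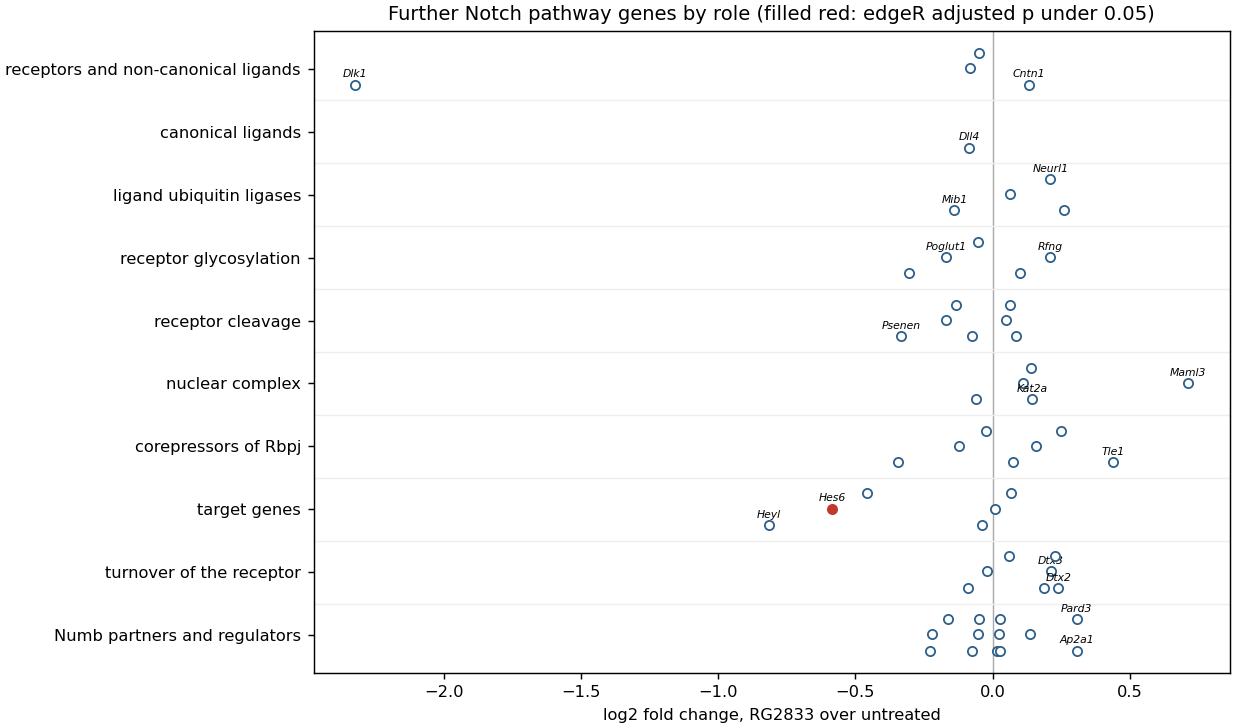
Log2 fold change of RG2833 over untreated animals for 59 of the 61 tested further pathway genes, 1 row per role and 1 point per gene; filled red points have an edgeR adjusted p under 0.05, and the vertical offset within a row only separates points. Hes6 at -0.58 is the filled point, and points lie on both sides of 0 in every role with more than 1 gene plotted.

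Markers of the cells in which Notch is best known to act were read beside the members. Of 8 tested neural progenitor markers none was called. Sox2 and Nes, markers of stem and early progenitor cells, had log2 fold changes of 0.01 and -0.02. Log2 fold changes were below 0 in 6 of the 8, and Prom1, a membrane glycoprotein of stem cells, had no overlap between groups (23.5 to 35.7 CPM in untreated and 18.5 to 23.2 CPM in RG2833 animals; -0.34, edgeR adjusted p = 0.113). Dcx, a marker of immature neurons, had one of -0.54 (edgeR adjusted p = 0.070). Of 10 astrocyte markers none was called, and their sums, 6012 to 9412 CPM in untreated animals and 6407 to 8414 CPM with RG2833, overlapped.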

How the data were processed

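RNA of 10 left hippocampi was sequenced from strand-specific mRNA libraries, per the labels' protocols. The submitters' processing notes name bcl2fastq 2.17, Bowtie2 2.1.0, RSEM 1.2.15, edgeR and the build rn6, without roles. The authors deposited RSEM expected counts per gene, and a normalized signal (CPM after TMM scaling, columns summing to 967165 to 1036329). Expected counts were rounded, filtered with edgeR's filterByExpr by group, TMM-scaled and tested with edgeR 4.0.16 (R 4.3.3; glmQLFit, no covariate, all 10 animals). SE is the absolute log2 fold change over the square root of the F statistic. Log2 CPM used a prior count of 2. Tests were also run on simulated counts without a ribosomal RNA difference or an outlying animal, so those runs do not vouch for the calls here.

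The members and lists were chosen with earlier results of these data known. Named are the members, called pathway genes, the 2 genes of smallest p in each role and the 5 genes most like Numbl. Results of some listed genes are not reported here. Ncor1, Msi1, Rbpj, Nrarp, Id1, Ap2a2, Ap2b1 and the markers were named after their values were seen. The design text gives 5 rats a group, so each sample was taken as 1 animal. Levels of different genes are not compared, since transcript lengths were not used here. At these depths 3 counts equal 0.268 to 0.343 CPM (counting error only). Replicate numbers name different animals. Alternatives were other scalings, filters, DESeq2 1.42.0, limma 3.58.1 (voom and trend), a replicate block, covariates and leaving out animals.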

Additional observations from a re-analysis of the deposited data

Results flagged for a closer look

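Of 58 groups of 5 values (10 members and 19 further pathway genes, in both groups), Dixon's 95% limit on the ratio of gap to range in 5 samples (0.71) was passed in 3. Chance flags about 1 in 20 groups. Hes5 was 15.6 CPM in RG2833 animal 1 against 9.20 to 11.0 CPM in the other treated animals (ratio of gap to range 0.723). Hes6 was 21.7 CPM in RG2833 animal 2 against 18.4 to 18.8 CPM (0.872). Ap2a1 was 208 CPM in untreated animal 2 while the rest of that group lay between 276 and 283 CPM (0.909).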

How the results depend on the processing

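Leaving out both untreated animals 1 and 4, and the Wfs1 covariate, were chosen after seeing the data. With all animals 599 genes were called, 2 of the further pathway genes and 1 member other than Numbl. For all genes the count was 1295 with DESeq2's Wald test, 180 with the replicate block, 2 with the ribosomal RNA covariate, 12 with the Wfs1 covariate, 1379 without untreated animals 1 and 4, 1466 at an adjusted p under 0.1, and 98 to 1556 when each animal was left out. For the pathway genes these counts were 6, 1, 0, 0, 8, 8, and 0 to 11. The member count was 0 without a filter, with limma-voom, the replicate block and either covariate, and 0 to 1 when each animal was left out. The same-numbered animals did not deviate together (correlations from -0.32 to 0.15).

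Some values turned direction, Heyl and Maml3 (-0.81 and 0.71 with no covariate) among them. With the ribosomal RNA covariate Hes1 was 0.068, Hes5 0.94, Dll4 0.77, Maml3 -0.27, Kat2a -0.035 and Heyl 0.17 (log2). Dll4 was 0.0040 and 0.015 with limma trend at pseudocounts 1 and 0.1. Hes1 was 0.068 without untreated animals 1 and 4. With the Wfs1 covariate Hes5 was 0.31 and Dll1 -0.0037. When each animal was left out, Hes1 ran from -0.15 to 0.051, Hes5 from -0.27 to 0.087 and Dll4 from -0.24 to 0.22. The difference in total count ran from -33012.5 to 558774. The causes were not tested. Depth limits Dll1, Jag1 and Hes5 most among the members.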

Other observations

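Other cell types in the tissue also differed between animals. All 8 oligodendrocyte markers had log2 fold changes above 0 (median 0.13), and none was called. Their summed level ran from 5802 to 17895 CPM in untreated and from 9151 to 12388 CPM in RG2833 animals. Of 8 microglial markers, 1 was called, Aif1, which was lower, and the median was -0.29. Prox1, a marker of dentate granule neurons, ranged from 11.2 to 54.9 CPM in untreated and from 28.8 to 69.1 CPM in RG2833 animals, with the lowest values in untreated animals 1 and 3. Hes1 and Notch1 also held 4 copies each of the N-box CACNAG, the element bound by Hes proteins, in the 250 bases before their starts (a pair of those in Notch1 overlap), as 0.193% of promoters hold 4 or more on either strand. The E-box CACGTG, held by 5.79% of promoters, was in none of the 9 matched member promoters. Of tested genes whose promoters held TGGGAA, 4.61% of 1756 were called, against 5.12% of 7070 without it, both near the 5.08% of all tested genes.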
